A study of Mus musculus with 4 samples.

Results

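The protein arginine methyltransferases other than Prmt5 were followed in cultured muscle stem cells (MuSC, satellite cells) that had lost Prmt5. The 8 genes are Prmt1, Prmt2, Prmt3, Carm1 (also called Prmt4), Prmt6, Prmt7, Prmt8 and Prmt9. They were chosen by name as members of the family, with earlier results of these data known, and their Ensembl identifiers in GENCODE release M21 were looked up among the 20065 genes of the deposited table. A row was found for 6 of the 8, and all 6 passed the filter on low counts, a mean of at least 5 normalized counts. The release M21 identifiers of Prmt1 and Prmt8 matched no row, so both were not analysed here. The table follows another annotation release, since 283 of its identifiers have no symbol in M21, and a gene listed under a retired identifier would not be found this way. A missing row is therefore not a measured zero, and every sum below leaves out both enzymes.

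The study sequenced ribosome-depleted RNA of cultured MuSC from limb and trunk muscles of adult C57BL/6 mice, with 2 control and 2 Prmt5sKO samples. The study defines its controls as Pax7CreERT2 with 1 loxP allele of Prmt5 (Pax7CreERT2/Prmt5+/loxP), while the sequenced control samples are labelled wild type. Their genotype is taken here from that definition. The Prmt5sKO samples carry Pax7CreERT2 with both alleles floxed (Pax7CreERT2/Prmt5loxP/loxP). The study states that the MuSC of both groups were treated with hydroxytamoxifen, and its methods describe this treatment in culture. Cre acts only in cells that use the Pax7 promoter, and controls of the defined genotype can themselves lose the single floxed copy. If the sequenced controls have that genotype, Cre activity and hydroxytamoxifen are shared by both groups while the dose of Prmt5 differs. Nothing states whether the 2 samples of a group came from separate animals, so the p-values measure the spread between these samples.

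Protein arginine methyltransferases transfer methyl groups from S-adenosylmethionine to arginine side chains of histones, RNA-binding proteins and transcription factors. Type I enzymes (Prmt1, Prmt2, Prmt3, Carm1, Prmt6 and Prmt8) form monomethylarginine and asymmetric dimethylarginine. Type II enzymes (Prmt5 and Prmt9) form symmetric dimethylarginine, and Prmt7, the type III enzyme, stops at monomethylarginine. Prmt1 is known as the main source of asymmetric dimethylarginine in most cells, and Prmt8 is known as a membrane-bound enzyme of the brain. In muscle stem cells, Carm1 is known to methylate the transcription factor Pax7, and Prmt7 is known to be needed for regeneration. Since several enzymes share substrates, the question put to the data was whether transcripts of the remaining enzymes differed when Prmt5 was lost.

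The table gives a mean of normalized counts for each group, and the reads of each single library were worked back from these means. No replicate number is attached to the columns. The libraries of a group are therefore told apart by depth, and each pair of values below gives the deeper library first. The recovered counts summed to between 13240754 and 20047430 per library. As a check of the labels, Prmt5 had 2273 and 2906 normalized counts in the controls and 244 and 202 in Prmt5sKO, with counts taken over the whole gene (log2 fold change -3.52, SE 0.27, adjusted p 0.193 in limma-voom). The libraries also differed in other ways. The 8 genes of differentiating muscle summed to 47781 and 95381 normalized counts in the controls and 42506 and 359795 in Prmt5sKO, so the shallower Prmt5sKO library stood apart. Ttn made up most of the sum in the controls, and the other 7 genes were also higher in the deeper Prmt5sKO library than in both controls. The margin was wide for Myog (3707 against 1436 and 1189) but narrow for Myh3 (3024 against 2858 and 1738) and Tnnt3 (966 against 901 and 829). Ribosomal-type and Lars2 transcripts took 6.54% and 14.9% of the counts in the controls and 1.94% and 2.64% in Prmt5sKO. With them left out, 16199 of 16212 tested genes remained, and the log2 fold change of Carm1 was -1.01, the same as with them. The scaling already trims extreme genes, so this value could hardly move. Whether the difference in these shares had a part in other values was not tested. The 7 genes of proliferating cells summed to 32915 and 37751 in the controls and 17895 and 16419 in Prmt5sKO. Satellite cell markers were abundant in all 4 libraries, Pax7 between 2570 and 3664 normalized counts. The lists of fibroblasts, endothelial cells and blood cells summed to at most 392, 163 and 126 normalized counts in any library. Their members Lum and Dpt had 0 reads in at least 1 library, as did Cdh5 and Itgam. The blood list rests on 3 of its 5 genes, because Ptprc and Adgre1 matched no row, which is not a measured zero.

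The 5 members with an entry in the RefSeq promoter table (GRCm38.p6) were Prmt2, Prmt3, Prmt6, Prmt7 and Prmt9, while Carm1 has none there. The 250 bases before the annotated start are printed for Prmt2 and Prmt3, which had the largest differences in either direction among these 5. They run 5′ to 3′ on the strand of the gene. Capitals mark the GC box GGGCGG and the CCAAT box CCAAT, each on either strand. The first window is chr10:76237866-76238115 on the minus strand, and the second is chr7:49778108-49778357 on the plus strand.
Prmt2: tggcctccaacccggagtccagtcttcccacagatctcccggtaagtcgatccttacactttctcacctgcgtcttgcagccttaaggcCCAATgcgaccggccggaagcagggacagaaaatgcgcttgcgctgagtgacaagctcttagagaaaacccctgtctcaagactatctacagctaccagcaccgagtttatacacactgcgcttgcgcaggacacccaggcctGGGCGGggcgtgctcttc
Prmt3: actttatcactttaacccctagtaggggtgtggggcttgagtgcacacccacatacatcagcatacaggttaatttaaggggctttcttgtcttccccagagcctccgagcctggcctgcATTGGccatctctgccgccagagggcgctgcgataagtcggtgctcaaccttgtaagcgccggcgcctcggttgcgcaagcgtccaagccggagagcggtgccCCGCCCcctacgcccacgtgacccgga

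Both windows hold 1 GC box and 1 CCAAT box. Across the 5 members the GC box was present in 3, beside 32.7% of all 32851 promoters of that length, and the CCAAT box in 2, beside 33.8%. The E2F letters TTTCCCGC or TTTGGCGC were present in 0 of the 5, beside 1.3% of all promoters. The windows held 13 to 35 CpG dinucleotides, with 35 in Prmt7, beside a median of 6 over all promoters. These letters are a description of the windows, and no binding or methylation was measured in this experiment.

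Among the remaining enzymes Carm1 differed most between the groups. Its transcript level in Prmt5sKO was 0.49 times the control level (95% interval 0.34 to 0.71), while the estimates for the other 5 members lay between 0.75 and 1.26 times the control level. No member passed the call rule, an adjusted p of at most 0.05 with a fold change of at least 2 in limma-voom. That rule called 0 of the 16212 genes tested (0%), Prmt5 included, and 2101 genes had an unadjusted p under 0.05. With DESeq2 the study did report genes up- and downregulated at a false discovery rate under 0.05. The 0 calls therefore describe limma-voom as run here. Of the 6 members, 1 had an unadjusted p under 0.05 on the lower side (Carm1), where 6.95% of all genes did, and 0 on the higher side, where 6.01% did. Both Prmt5sKO libraries lay below both controls for 3 members (Carm1, Prmt3 and Prmt7), beside 23.6% of all genes, and above them for 0 members, beside 25.2%. The median log2 fold change was -0.16 over the 6 members and 0.02 over all genes tested.

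**Figure D1:**
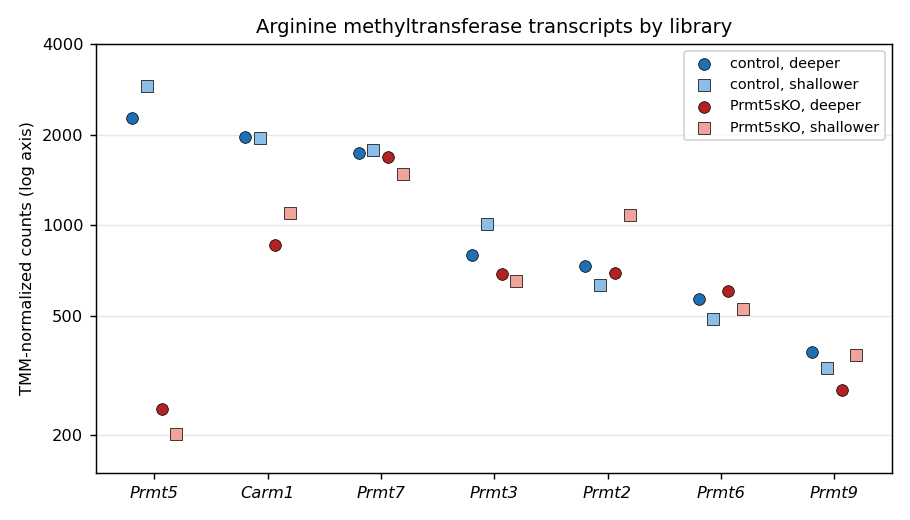
Normalized counts (log axis) of Prmt5 and the 6 measured members in each of the 4 libraries, blue for control and red for Prmt5sKO, circles for the deeper and squares for the shallower library of a group. Carm1 lies between 1952 and 1957 in the controls and at 859 and 1095 in Prmt5sKO, whereas the points of Prmt6 and Prmt9 intermingle.

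Carm1 (ENSMUSG00000032185, chr9:21546894-21592623 on the plus strand, GRCm38) encodes a type I enzyme that methylates histone H3 and acts as a coactivator with the p160 proteins. It had 1957 and 1952 normalized counts in the controls and 859 and 1095 in Prmt5sKO. Both Prmt5sKO libraries were lower than both controls, and the gap was far wider than the difference between the libraries of either group. The log2 fold change was -1.01 (SE 0.22) with an adjusted p of 0.24 in limma-voom (unadjusted p 0.0033), rank 222 of all genes tested. An exact permutation test of 2 against 2 libraries cannot give a two-sided p below 0.333, so it could not separate the groups for any gene. The values rest on 1089 to 1732 reads per library.

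Ratios within a library do not depend on how the libraries are scaled, and they were also lower. Within each library, Carm1 had 1.13 and 1.10 reads per Prmt7 read in the controls and 0.511 and 0.741 in Prmt5sKO. Per Prmt6 read the values were 3.44 and 4.01 in the controls and 1.43 and 2.08 in Prmt5sKO. The gap was narrower per Prmt3 read, with 2.46 and 1.94 in the controls and 1.25 and 1.68 in Prmt5sKO. Carm1 shares 1025 exon bases (21.1% of its exon length) with Yipf2, a gene on the opposite strand, and whether the counting used strand is not given in the sources used here. Yipf2 itself had 255 and 230 normalized counts in the controls and 236 and 226 in Prmt5sKO, a log2 difference of -0.07 (SE 0.28). The ratio of Carm1 to Yipf2 was 7.66 and 8.50 in the controls and 3.64 and 4.84 in Prmt5sKO, lower in both Prmt5sKO libraries. In bulk RNA, fewer cells that express a gene and less RNA per cell cannot be told apart, here or for any value below. Without the shallower Prmt5sKO library, rich in muscle differentiation transcripts, the log2 fold change of Carm1 was -1.19, and without the deeper it was -0.84. Genes of proliferating cells were lower in the same libraries as Carm1, 6 of the 7 without overlap beside 23.6% of all genes, and their part in the Carm1 difference was not tested.

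Prmt3 (ENSMUSG00000030505, chr7:49778346-49858265) encodes a cytosolic type I enzyme known for methylating the ribosomal protein Rps2. It had 794 and 1006 normalized counts in the controls and 690 and 652 in Prmt5sKO. Both Prmt5sKO libraries were lower, but the controls lay further apart than the distance from the lower control to Prmt5sKO. The log2 fold change was -0.41 (SE 0.23, 95% interval -0.97 to 0.15), with an adjusted p of 0.475 in limma-voom.

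Prmt2 (ENSMUSG00000020230, chr10:76207222-76237865 on the minus strand), a type I enzyme with weak activity that is known as a coactivator of nuclear receptors, had the highest estimate of the 6. It had 731 and 630 normalized counts in the controls and 694 and 1083 in Prmt5sKO. Only the shallower Prmt5sKO library was high, and the deeper lay between the controls. The log2 fold change was 0.34 (SE 0.29, 95% interval -0.37 to 1.04), with an adjusted p of 0.629 in limma-voom. Without the shallower Prmt5sKO library it was 0.03, and without the deeper 0.67. The shallower library is the one in which the differentiating muscle list stood apart. For 7 of the 8 genes of that list both Prmt5sKO libraries lay above the controls, beside 25.2% of all genes, and whether Prmt2 and these transcripts moved for a common reason was not tested.

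Prmt6 (ENSMUSG00000049300, chr3:110246109-110250998 on the minus strand) encodes a nuclear type I enzyme that methylates histone H3. It had 570 and 486 normalized counts in the controls and 602 and 527 in Prmt5sKO, and the groups overlapped. The log2 fold change was 0.10 (SE 0.24, 95% interval -0.48 to 0.67), adjusted p 0.869 in limma-voom. Its exons share 984 bases (23.4%) with an antisense gene, C130013H08Rik, whose identifier matched no row of the table.

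Prmt7 (ENSMUSG00000060098, chr8:106210936-106252794), the monomethylating enzyme, was nearly even across the libraries. It had 1737 and 1775 normalized counts in the controls and 1683 and 1478 in Prmt5sKO. Both Prmt5sKO libraries were lower, the deeper by less than the distance between the Prmt5sKO libraries. The log2 fold change was -0.15 (SE 0.20, 95% interval -0.64 to 0.33), adjusted p 0.75 in limma-voom.

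Prmt9 (ENSMUSG00000037134, chr8:77549397-77581338) is the other type II enzyme, so like Prmt5 it forms symmetric dimethylarginine, and the splicing factor Sf3b2 is its known substrate. It had 379 and 336 normalized counts in the controls and 284 and 370 in Prmt5sKO. The shallower Prmt5sKO library lay between the controls, and only the deeper was lower. The log2 fold change was -0.16 (SE 0.28, 95% interval -0.83 to 0.52), adjusted p 0.821 in limma-voom. Prmt9 also had the lowest read counts of the 6, between 259 and 383 per library.

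**Figure D2:**
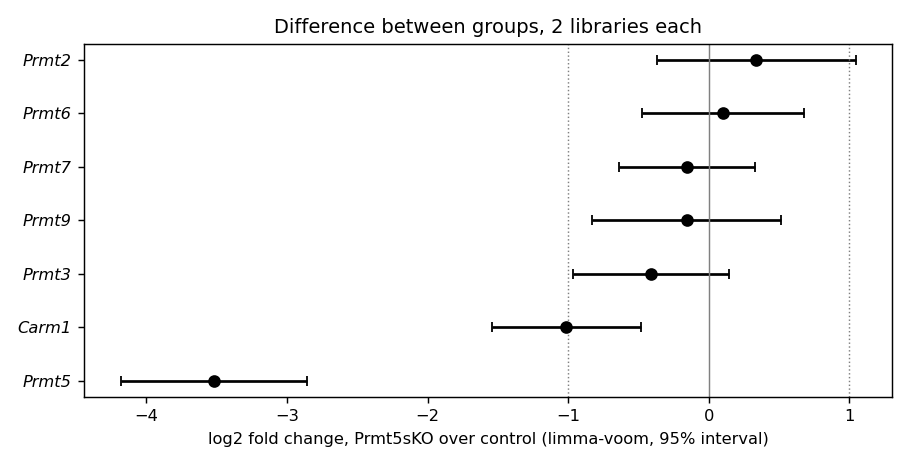
Log2 fold change, Prmt5sKO over control, of the 6 measured members and Prmt5 from limma-voom with 2 libraries per group, with bars for the 95% interval and dotted lines at a doubling and a halving. The interval of Carm1, -1.54 to -0.48, lies below 0, and those of the other 5 members include 0.

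The intervals state how much higher each transcript could have been. The upper ends of the 95% intervals were 2.06 times the control level for Prmt2, 1.60 for Prmt6, 1.43 for Prmt9, 1.26 for Prmt7, 1.11 for Prmt3 and 0.71 for Carm1. Differences inside these intervals were not resolved with 2 libraries per group, and the intervals are not adjusted for the number of genes.

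Divided by the length of all annotated exons, the levels can be set side by side, though their order depends on the length used. In the controls Prmt5 was highest with a mean of 654 ± 113 normalized counts per kilobase (SD, n = 2), followed by Carm1 with 403 ± 0.80, Prmt7 with 287 ± 4.4, Prmt2 with 201 ± 21.1, Prmt3 with 150 ± 25.0, Prmt6 with 126 ± 14.0 and Prmt9 with 62.9 ± 5.3. By this length the neighbours Prmt3 and Prmt6 overlapped between libraries, whereas each other neighbouring pair held its order in both controls. All exons of Prmt3 cover 5996 bases and those of Prmt6 4197, but their longest transcripts have 2937 and 3059 bases. For Prmt2 the exons cover 3381 bases and the longest transcript 2100. The order among Prmt2, Prmt3 and Prmt6 therefore rests on the length chosen, in both groups. In Prmt5sKO the means were 263 ± 81.5 for Prmt2, 258 ± 23.7 for Prmt7, 201 ± 34.4 for Carm1, 135 ± 12.7 for Prmt6, 112 ± 4.5 for Prmt3, 57.6 ± 10.7 for Prmt9 and 56.3 ± 7.4 for Prmt5. Here Prmt2 led in the shallower library and Prmt7 in the deeper, and Carm1 lay below both in each library. Prmt9 and Prmt5 overlapped as well.

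The 6 members together reached 1238 and 1221 normalized counts per kilobase in the controls and 966 and 1087 in Prmt5sKO, a ratio of means of 0.835. Neither Prmt5sKO library reached a control. Without Carm1, a choice made after its values were seen, the other 5 summed to 835 and 819 in the controls and 788 and 861 in Prmt5sKO, and the groups overlapped with a ratio of 0.997. The mean of the 6 was lower by 204 normalized counts per kilobase in Prmt5sKO, beside means of 654 and 56.3 for Prmt5 in the controls and Prmt5sKO. With Prmt5 included, the sums were 1812 and 1956 in the controls and 1027 and 1138 in Prmt5sKO.

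**Figure D3:**
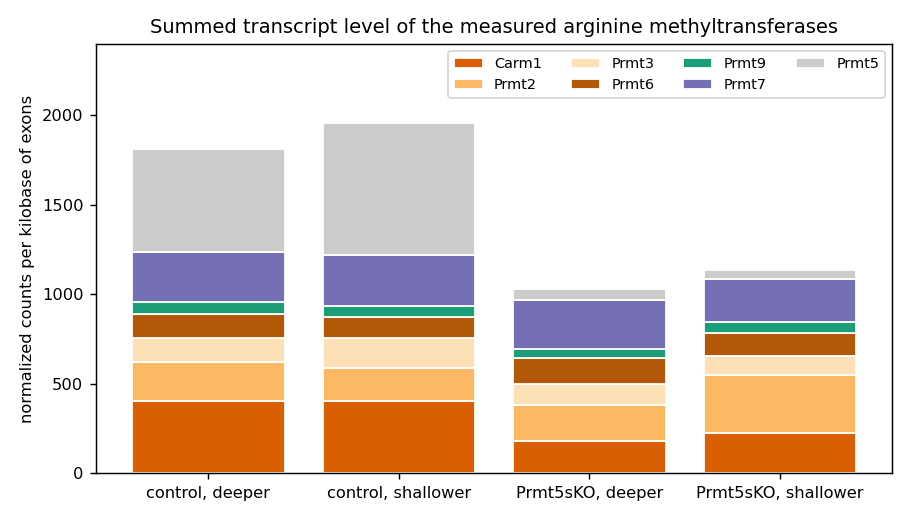
Stacked normalized counts per kilobase of exons of the 6 measured members and, on top in grey, Prmt5, in each of the 4 libraries. The stack without Prmt5 is 1238 and 1221 in the controls and 966 and 1087 in Prmt5sKO, with the Carm1 segment (bottom) at 403 and 402 against 177 and 226.

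Carm1 held 32.6% and 32.9% of the sum of the 6 in the controls and 18.3% and 20.8% in Prmt5sKO. The share of Prmt2 was 17.5% and 15.3% in the controls and 21.2% and 29.5% in Prmt5sKO, so both Prmt5sKO libraries were higher. Prmt6 held 10.96% and 9.5% in the controls and 14.9% and 11.6% in Prmt5sKO, while the shares of Prmt3, Prmt7 and Prmt9 overlapped. Shares add to a fixed total, so a lower share of Carm1 by itself raises the shares of the others. By type, the 4 type I members summed to 888 and 872 normalized counts per kilobase in the controls and 641 and 780 in Prmt5sKO.

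The surrounding pathway was described with lists of genes read from the same limma-voom fit, and 0 genes of any of these lists passed the call rule. The methyl donor cycle supplies S-adenosylmethionine. Of 10 genes tested, 2 had an unadjusted p under 0.05 on the lower side and 0 on the higher, beside 6.95% and 6.01% of all genes. These 2 were Ahcyl1 with a log2 fold change of -0.67 and Mtap, which salvages a by-product of polyamine synthesis, with -0.61. Both Prmt5sKO libraries lay below the controls for 4 genes and above them for 2, beside 23.6% and 25.2% of all genes. Mat2a, which encodes the S-adenosylmethionine synthetase of most tissues, had -0.14 and Ahcy, the hydrolase that removes the product inhibitor of methyltransferases, -0.32. The list's median was -0.17.

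Known substrates formed the largest pathway list. Of 29 genes, 19 had both Prmt5sKO libraries below the controls and 2 above, beside 23.6% and 25.2% of all genes. At an unadjusted p under 0.05, 9 were on the lower and 1 on the higher side, beside 6.95% and 6.01% of all genes, with a median log2 fold change of -0.39 beside 0.02 for all genes. The largest differences were Taf15, an RNA-binding protein of the transcription machinery, with 1539 and 1716 normalized counts in the controls and 471 and 674 in Prmt5sKO (-1.54, adjusted p 0.203), and the nucleolar proteins Ncl with -1.04 and Gar1, with 823 and 912 normalized counts in the controls and 485 and 379 in Prmt5sKO. Fibrillarin (Fbl), also nucleolar, had -0.76 and the poly(A)-binding protein Pabpc1 -0.66. The list holds substrates of several enzymes, Prmt5 among them, and it was compiled with earlier results of these data known. Genes of proliferating cells had lower values in the same libraries, and their part in the substrate values was not tested.

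Some substrates are tied to single members. Pax7, a Carm1 substrate, had a log2 fold change of 0.01, Sf3b2, the Prmt9 substrate, -0.15 and Chtop, an mRNA export factor methylated by Prmt1, -0.24. Rps2, the Prmt3 substrate, had 15893 and 14747 normalized counts in the controls and 54216 and 15421 in Prmt5sKO, so its estimate of 0.90 rests on the deeper library alone. Rps2 has many near-identical processed copies in the genome, and how such reads were counted was not examined, so its values are uncertain.

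Partners and modulators had a median log2 fold change of 0.30, the highest of the 6 pathway lists. Btg2, an antiproliferative partner of Prmt1, had 539 and 121 normalized counts in the controls and 1123 and 1344 in Prmt5sKO. The groups did not overlap, although the controls differed widely, and the log2 fold change was 2.21 (SE 0.59, adjusted p 0.276 in limma-voom). Its relative Btg1 had 1287 and 870 in the controls and 2452 and 1557 in Prmt5sKO (0.88). Of the p160 coactivators that recruit Carm1, Ncoa1 had 0.39 (SE 0.37), Ncoa2 0.19 (SE 0.20) and Ncoa3, added after its values were seen, -0.22 (SE 0.27). Of the 7 genes, 2 had an unadjusted p under 0.05 on the higher and 0 on the lower side, beside 6.01% and 6.95% of all genes.

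Among 6 Tudor domain readers of methylarginine, Tdrd7, a component of RNA granules, had 337 and 350 normalized counts in the controls and 505 and 539 in Prmt5sKO, a log2 fold change of 0.60. Its unadjusted p in limma-voom was 0.046 (adjusted p 0.377). Of the 6 readers, 1 was thus under 0.05 on the higher side and 0 on the lower, beside 6.01% and 6.95% of all genes. Tdrkh had 0.41, Smndc1 0.29, Snd1 -0.29, Smn1 -0.22 and Tdrd3 -0.18. Of the enzymes that break down free methylarginine, Ddah1 had 0.45 and Ddah2 -0.32, and the groups overlapped for both. The arginine-modifying enzymes outside the family had 0.25 (Jmjd6), 0.28 (Ndufaf7) and 0.09 (Mettl23).

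**Figure D4:**
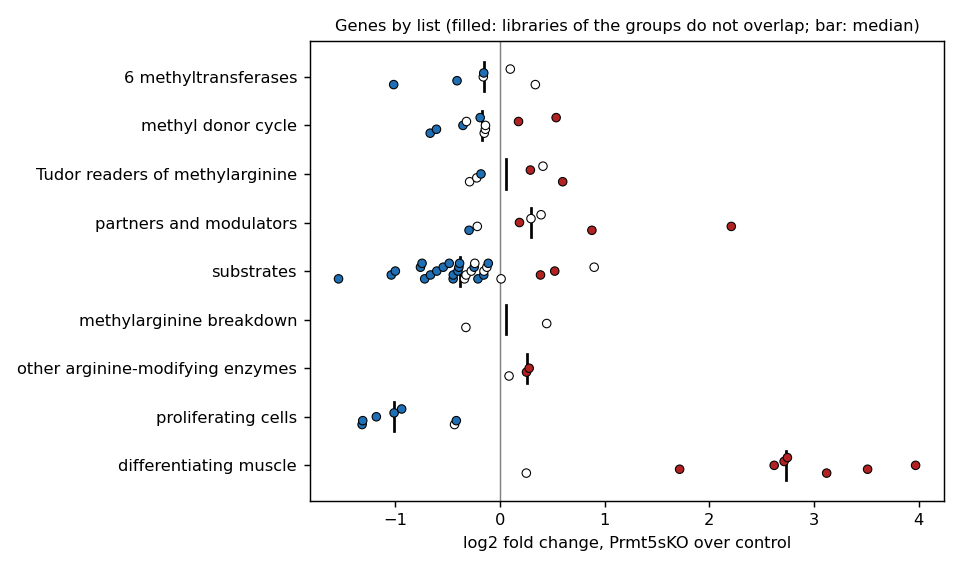
Log2 fold change, Prmt5sKO over control, of each tested gene of the 6 measured methyltransferases, 6 pathway lists and 2 marker lists (1 point per gene, vertical offset for legibility only). Blue and red mark genes whose groups do not overlap on the lower and higher side, open points overlap, and bars are medians, -0.39 for substrates and -1.01 for proliferating cells.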

How the data were processed

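RNA-seq libraries of 2 control and 2 Prmt5sKO samples of cultured MuSC were used. The authors trimmed the reads, aligned them with STAR 2.4.0a to GRCm38 (versions from the submitters' processing notes), counted them per gene and ran DESeq2 1.62. In the deposited table the signal of a gene is its size-factor-scaled read count averaged by the authors over the samples of a group. The table also holds the authors' fold changes and p-values, which were not used. Since reads are whole, each mean has a single split into 2 libraries, and the counts of both were obtained for 100% of 20065 genes. Recovery and test were checked on simulated data. Counts were scaled by TMM (trims of 30% and 5%), and genes whose normalized counts averaged 5 or more were compared with limma-voom (limma 3.58.1, R 4.3.3) and Benjamini-Hochberg adjustment, with genotype as the only term. Levels per kilobase used the union of GENCODE M21 exons. The libraries within a group correlated with Spearman's rho of 0.966 (control) and 0.953 (Prmt5sKO) across genes. Such a rank correlation says little about single genes, such as Myh3 with 3024 and 70413 normalized counts in Prmt5sKO.

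The members and lists were chosen with earlier results of these data known. Named genes were the members, Prmt5, a fixed set from the lists, up to 3 genes per list with the largest difference (1 of them is not reported here), and the nearest profiles to the member that differed most. Nearest profiles to Prmt1, also planned, could not be computed. Intervals of counts cover counting error and the spread between these samples only. The alternatives were other scalings, filters and tests, leaving out each library, and both pairings of libraries.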

Additional observations from a re-analysis of the deposited data

How the results depend on the processing

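No member was called in the main test or in any of 13 alternatives, and the log2 fold change of Carm1 ranged from -1.19 to -0.84 (adjusted p in limma 0.059 to 0.968). With 2 libraries per group the test made 0 calls over all genes, against 489 without the deeper and 55 without the shallower Prmt5sKO library, where the lone library is assumed to vary like the others. Leaving out each library in turn gave 3 reversals near 0: Prmt6 at -0.0038 without the shallower control and -0.0029 without the deeper Prmt5sKO library, and Prmt9 at 0.049 without the latter (ranges over these 4 fits -0.0038 to 0.20 for Prmt6 and -0.33 to 0.049 for Prmt9). In the same fits the median of the members ranged from -0.20 to -0.13. The summed level ranged from -0.35 to -0.18 on the log2 scale, against -0.26 with all libraries. The number of members without overlap was 4 to 5. A group of 1 library overlaps the other less readily than a group of 2, so this number cannot be compared with that from all libraries. Scaling by library size alone moved the median of all genes from 0.02 to 0.13, that of the members to -0.045 and the summed level to -0.16. Under it Prmt7 overlapped and Prmt2 did not.

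Replicate numbers are missing from the columns, so the pairing is unknown and was not used as a result. A replicate block that pairs the deeper libraries gave -1.01 for Carm1 (adjusted p 0.318) and 0 calls. The block that pairs deeper with shallower libraries called 346 genes, among them 1 gene of the pathway lists (Taf15) and Prmt5 but no member. Prmt5 also passed when either Prmt5sKO library was left out, as did some genes of the pathway lists, in fits with a lone library in that group. Count tests with edgeR and DESeq2, planned as alternatives, were not run.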

Other observations

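Of 10254 genes with a mean of at least 100 normalized counts, the 3 whose centred log2 profile over the 4 libraries lay closest to that of Carm1 were Camkk2, a calmodulin-dependent kinase kinase, D630045J12Rik and Kctd15. Their root mean square differences from it were 0.030, 0.037 and 0.037 on the log2 scale. Camkk2 had 850 and 808 normalized counts in the controls and 366 and 479 in Prmt5sKO. Its groups did not overlap (adjusted p 0.259 in limma-voom), which follows from its choice by likeness to Carm1 over the same libraries. With 4 libraries, many genes share such a profile, and nothing follows from it about function or control.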
